A study of Danio rerio with 12 samples.

Results

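A set of 1415 genomic regions in the zebrafish embryo carried a p63 peak in every p63 library of the study and no Sox3 peak in any Sox3 library. The sites were chosen by the presence and absence of peaks. The 6 p63 lists collapsed into 72866 regions when peaks with at least 1 bp in common were joined, and 3194 of these held a peak in all 6 lists (4.38%), and these are called constant sites here. Of the constant sites, 1779 shared at least 1 base with a Sox3 peak from 1 or more of the 6 Sox3 lists, and the other 1415 (44.3%) are the sites free of Sox3 described here.

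The assay was ChIPmentation on whole embryos, in which chromatin bound by an antibody is tagged with sequencing adaptors by the Tn5 transposase. The p63 libraries came from wild type embryos at 3 stages with 2 libraries each, namely gastrulas at 80% of epiboly and embryos of 24 and 36 hours post-fertilization (hpf). The Sox3 libraries came from wild type embryos, with single libraries for 80% of epiboly and for 24 hpf and 2 libraries for 36 hpf, and from *tp63*-/- embryos at 36 hpf (2 libraries), a CRISPR/Cas9 line whose small deletion introduces an early stop codon in all *tp63* isoforms. Each library was made from many pooled whole embryos, so a peak carries no information on the cell type that gave it, and the p63 and Sox3 peaks of a stage need not come from the same cells. The Sox3 groups at 80% of epiboly and at 24 hpf have no replicate here, and the study's reporting summary describes second libraries left out for their quality. The study describes the 2 libraries of a group as biological replicates. Nothing in the labels says whether they came from separate clutches.

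p63 is a transcription factor of the p53 family that is required for the epidermis and its appendages, and it binds a long, partly palindromic motif as a tetramer. In skin it is known to act at enhancers, including ones in closed chromatin. Sox3 is an HMG-box factor of the SoxB1 group that marks neural progenitors, and in the gastrula the ectoderm is divided between a neural domain with SoxB1 factors and an epidermal domain with p63. The domains are not fully separate, since the study reports cells with both proteins at the border of the neural plate in bud stage embryos.

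The depth of the lists differed. The tags behind each peak call, recovered from the deposited fold enrichment and significance, ranged from 1.04 M to 25.1 M (M, megatags) for p63 and from 2.75 M to 14.1 M for Sox3, and the lists held 9538 to 42668 p63 peaks and 6045 to 81578 Sox3 peaks. The shallowest p63 list (36 hpf replicate 2) was also the shortest, and its 1.04 M tags are an upper bound since only 3 of its peaks lay at the lowest background. A list shows what passed a threshold at its own depth. A site free of Sox3 is therefore a site with no called Sox3 peak, and a lower level of Sox3 there was not detectable from these lists.

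Constant sites were free of Sox3 in a share close to that of p63 regions as a whole. Over all merged p63 regions, 45.1% overlapped no Sox3 peak, against the 44.3% of constant sites. The share was uneven in between. It was 54.5% for regions seen in 1 list, 35.7% in 2 lists, 28.2% in 3, 35.4% in 4 and 43.6% in 5 (n = 1896 regions). These shares belong to the rule, hold for the lists at full length and are given as a description.

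The threshold of the rule on the p63 side left 826 regions just outside, which were free of Sox3 but had a peak in only 5 of the 6 p63 lists. The missing list was 36 hpf replicate 2, the shallowest, for 276 of them, 24 hpf replicate 1 for 205 and 80% of epiboly replicate 1 for 188. It was 36 hpf replicate 1 for 36 and 24 hpf replicate 2 for 20, and 80% of epiboly replicate 2 for the rest. The share free of Sox3 was 59.7% and 62.0% among regions missing only an 80% of epiboly list, 43.7% and 35.7% among those missing only a 24 hpf list, and 34.0% and 35.1% among those missing only a 36 hpf list. They are described here without a test, since they sit on the edge of the rule.

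On the Sox3 side, the sites just inside the rule nearly touched a Sox3 peak. At chr15:22416957-22417520 (GRCz10, as all coordinates here) a single base separated the p63 region from a Sox3 peak. The gap was 3 bases at chr7:34893506-34893875 and 27 bases at chr7:27086633-27087310. Just outside, chr2:32287869-32288208 shared 9 bases with a Sox3 peak, chr20:24099204-24099841 shared 17 and chr7:68198535-68198825 shared 31. No genome of this build was used, so neither the bases of the sites nor the p53-family motif were analysed here, and the genes around the sites were not assigned.

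p63 peaks at these sites ranked high in every list. As a percentile of −log10 q within its list (0 for the weakest peak and 100 for the strongest), the median site stood at 89.9 and 90.9 in the 80% of epiboly libraries, at 82.1 and 90.6 in the 24 hpf libraries and at 83.1 and 69.4 in the 36 hpf libraries. The median site thus lay in the upper part of all 6 lists and lowest in 36 hpf replicate 2. A high percentile in the longer lists is favoured by the rule, which also requires a peak in the shortest list of 9538 peaks. The stage means were 90.4 ± 0.72, 86.3 ± 5.97 and 76.3 ± 9.7 (SD, n = 2 each). An exact permutation test of the stage grouping did not separate them (p = 0.333, adjusted over 3 stage tests p = 0.5, the smallest p this design allows being 0.0667). The fall from 80% of epiboly to 36 hpf was 14.1 percentile points. With every p63 list shortened to its 9538 strongest peaks and every Sox3 list to 6045, which leaves 1681 sites by the same rule, it was 3.71 points (exact permutation p = 0.0667, again the smallest the design allows). Presence in a list, the cut to equal length and the percentile all rest on −log10 q. Neither p-value is therefore separate support for a change with stage. At full length, constant sites with Sox3 stood higher still in every list, with stage means of 94.0, 88.7 and 80.0.

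Each list held weak members as well. Of the 1415 sites, 739 (52.2%) were in the upper 50 percentiles of all 6 lists and 81 (5.72%) were at or above percentile 90 in all 6. None lay in the lower 50 percentiles of all 6. The lowest of a site's 6 percentiles fell in 36 hpf replicate 2 for 661 sites (46.7%) and in 24 hpf replicate 1 for 299 sites (21.1%), and for 44 sites (3.11%) in 24 hpf replicate 2. The lowest percentile of any member was 0.213 and 2.05 in the 80% of epiboly lists, 0.0782 and 3.11 in the 24 hpf lists and 1.57 and 0.189 in the 36 hpf lists, which puts some sites at the very edge of detection in at least 1 list.

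The fold enrichment at the summit, the ratio of the tag pileup to the background around it, had a median over the sites of 9.07 and 8.61 at 80% of epiboly, 8.59 and 9.37 at 24 hpf, and 13.5 and 13.0 at 36 hpf. The last stage was the highest in both of its libraries, with no overlap with the other stages. Fold enrichment is set by each library's own background, which differed with depth, so the stages cannot be compared in amount of binding from it. Behind these ratios stood a median of 35 and 41 tags at the summit at 80% of epiboly, 24 and 34 at 24 hpf, and 31 and 18 at 36 hpf. In 36 hpf replicate 2 the weakest member rested on 4 tags. A fold enrichment of at least 5 was reached by 94.1% to 99.9% of the sites in each list.

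A rank free of list length was made by ordering the 3194 constant sites among themselves in each list, from 0 for the lowest −log10 q to 100 for the highest. On this scale the median site free of Sox3 stood at 43.0 and 42.7 at 80% of epiboly, 46.2 and 47.9 at 24 hpf, and 47.5 and 46.5 at 36 hpf. Constant sites with Sox3 stood at 56.0 and 56.1, 53.9 and 52.4, and 53.02 and 53.15 in the same order. Sites free of Sox3 were thus the lower class in all 6 libraries, with a mean difference of −8.48 ± 3.82 rank points (SD, n = 6 libraries). An exact sign-flip permutation test over the libraries gave p = 0.0313, two-sided (adjusted over 2 such tests p = 0.0313, the smallest value that 64 sign patterns allow). The libraries measured the same sites, so the test speaks to the spread between libraries and not between sites.

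**Figure D1:**
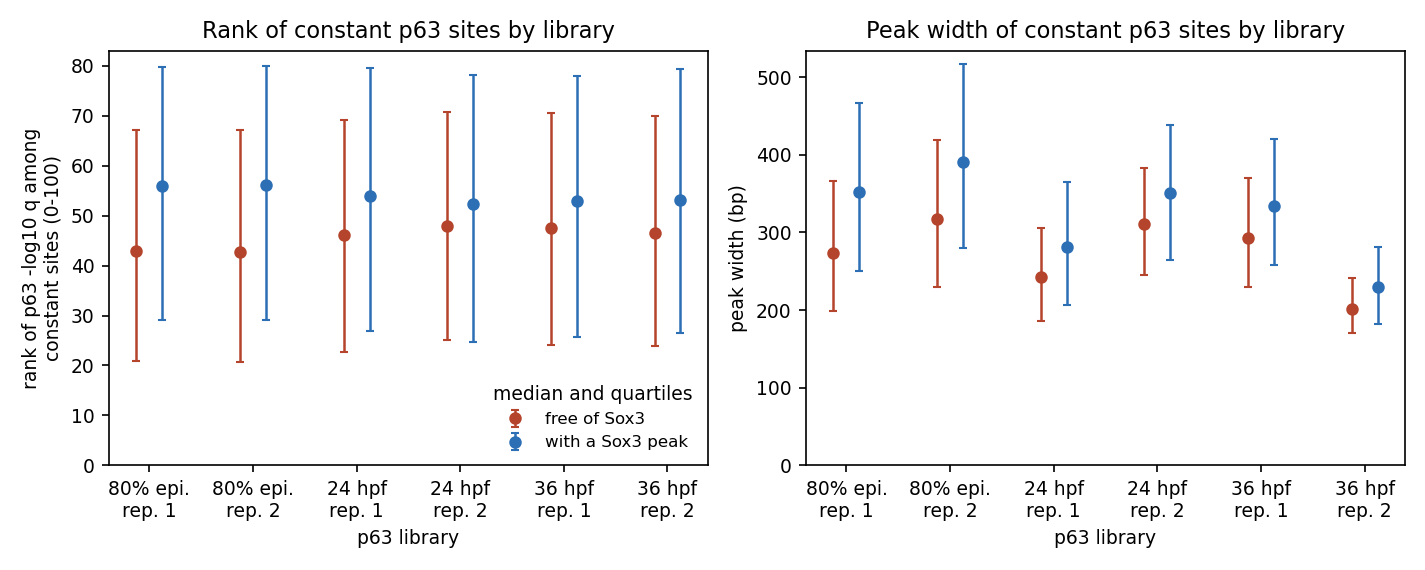
Median (points) and quartiles (bars) of the p63 rank among constant sites (left, 0 to 100) and of the p63 peak width in bp (right) in each of the 6 p63 libraries, for the 1415 constant sites free of Sox3 and the 1779 with a Sox3 peak. In every library the median of the sites free of Sox3 was the lower of the 2, and the quartile ranges of the classes overlapped broadly.

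The rank difference was uneven and depended on how Sox3 overlap was counted. It was −13.0 and −13.4 at 80% of epiboly, −7.78 and −4.51 at 24 hpf, and −5.51 and −6.67 at 36 hpf. The stage grouping of these 6 values, examined after they were seen, gave p = 0.2 by an exact permutation test. Without the Sox3 list of 24 hpf the mean difference was −2.82 (exact permutation p = 0.312), and the 24 hpf libraries then gave 0.125 and 5.7 while those of 80% of epiboly gave −9.91 and −9.05. Without p63 36 hpf replicate 2, which lets in sites absent from that list, it was −4.19. With lists of equal length it turned to 1.25, and with Sox3 overlap counted only where it covered 50% of both peak and region it turned to 2.21. The 80% of epiboly libraries gave a negative difference under each of the 3 changes to the Sox3 lists or their overlap (−8.77 and −8.8 with equal lists, −3.43 and −4.17 with the 50% rule). Ranked by fold enrichment in place of −log10 q, the mean difference was −3.06 (exact permutation p = 0.125), with −6.76 and −6.7 at 80% of epiboly and values from −4.01 to 0.814 in the later libraries.

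The share of sites free of Sox3 was smallest among the strongest constant sites. When the constant sites were divided into quintiles of mean rank over the 6 lists, 49.1% (95% Clopper-Pearson interval 45.2% to 53.1%, counting error only) of the lowest quintile were free of Sox3, and 50.1% and 50.5% of the next 2. The share was 42.4% (38.5% to 46.3%) in the fourth quintile and 29.4% (25.9% to 33.1%) in the highest. Counted from the other end, 23 sites free of Sox3 (1.63%) kept a rank of at least 80 in all 6 lists, against 91 constant sites with Sox3 (5.12%). Ranks of at most 20 in all 6 lists were rare in both classes, at 11 and 8 sites. Peak width rose with rank too. From the lowest to the highest quintile the median width averaged 209 and 358 bp at sites free of Sox3. At those with Sox3 it averaged 236 and 400 bp. A wide region has more bases that can meet a Sox3 peak, and the part of width in these shares was not tested.

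The number of Sox3 lists that overlapped a site did not order the ranks. The mean over libraries of the median rank was 45.6 with no Sox3 list, 57.5 with 1 list (566 sites), 55.0 with 2, 53.9 with 3, 51.7 with 4, 47.2 with 5 (381 sites) and 55.2 with all 6 (206 sites). The step thus lay between no list and 1 list, and sites with 5 lists stood close to those with none. At 80% of epiboly alone the ranks were 42.9 with no list, 50.8 to 57.2 with 1 to 5 lists and 67.5 with all 6. At 24 hpf they were 47.0 with no list, 60.6 and 60.2 with 1 and 2 lists, and 43.3 to 47.6 with 3 to 6. At 36 hpf they were 47.0 with no list, 45.7 with 5 lists and 50.6 to 58.8 with the other numbers. A single list overlapped 49.3% of the constant sites (Sox3 at 24 hpf), while the others overlapped 8.23% (80% of epiboly) to 34.5% (*tp63*-/- replicate 1), and leaving out the 24 hpf list raised the number of sites free of Sox3 to 1853. Leaving out any other single Sox3 list gave 1422 to 1465.

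The *tp63*-/- Sox3 lists removed few sites alone. With the 4 wild type Sox3 lists only, 1500 constant sites were free of Sox3. The 85 sites that make the difference had Sox3 peaks in *tp63*-/- embryos only, 19 of them in both mutant libraries and 66 in 1. Their mean of the median p63 ranks was 40.5 and their median p63 peak width averaged 276 bp, both near the values of the sites free of Sox3 (45.6 and 273 bp). The mutant lists rested on 14.1 M and 12.9 M recovered tags against 7.97 M and 5.75 M for wild type at 36 hpf. In uniquely mapped reads reported by the study, both wild type libraries lay between the mutant replicates. Genotype and the number of tags behind the peaks cannot be told apart in these 85 sites.

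Peaks at sites free of Sox3 were also narrower. Their median width was 273 and 317 bp at 80% of epiboly, 242 and 311 bp at 24 hpf, and 293 bp in 36 hpf replicate 1, with a mean of 247 bp over both 36 hpf libraries. Constant sites with Sox3 gave 352 and 391 bp, 281 and 351 bp, and 334 and 229 bp. The difference was negative in all 6 libraries, from −79 to −28 bp, with a mean of −50.2 ± 21 bp (SD, n = 6 libraries, exact sign-flip permutation p = 0.0313, the smallest the test allows). Width is not independent of the rule, since a wide region has more bases that can meet a Sox3 peak. The p-value is therefore no separate support for narrower peaks. The libraries also measured the same sites, so the test speaks to the spread between libraries and not between sites. When a constant site was instead called free of Sox3 if no Sox3 peak covered its median p63 summit, a rule that ignores region width and was added after the data were seen, the mean width difference was −42.8 bp and the mean rank difference −9.64, both negative in all 6 libraries. Width also grew with rank, from 209 bp in the lowest rank quintile to 358 bp in the highest for the sites free of Sox3. Within quintiles, a comparison also added after the data were seen, the mean difference was −33.5 bp. Without quintiles, the difference was −11.0 bp under the 50% overlap rule and −15.8 bp with lists of equal length, where the later libraries gave values on both sides of 0.

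Width differed as much between replicates as between stages. The stage means of the medians were 295 ± 31.1 bp at 80% of epiboly, 277 ± 48.8 bp at 24 hpf and 247 ± 65.1 bp at 36 hpf (SD, n = 2 each), and the stage grouping gave p = 0.667 by the exact permutation test. In each stage the library with fewer tags gave the narrower peaks, so depth moved with width, and its part was not tested. Merged over the lists, the sites spanned 183 to 1090 bp with a median of 409 bp. A single peak per list made up 1325 sites (93.6%), and 90 held more than 1 peak in at least 1 list.

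A constant peak was not a peak of constant rank. Replicates of a stage ordered the 1415 sites alike, with Spearman's rho across sites of 0.9 for the 80% of epiboly pair, 0.728 for the 24 hpf pair and 0.793 for the 36 hpf pair. Between stages rho was 0.353 to 0.379 from 80% of epiboly to 24 hpf, 0.333 to 0.36 from 24 to 36 hpf, and 0.147 to 0.181 from 80% of epiboly to 36 hpf. These correlations are over sites, which share libraries and are not independent replicates, and they are given as a description. The order of the sites was thus close between replicates and far from shared between the first stage and the last. The median range of a site's 6 ranks was 48.2 points, and 74 sites (5.23%) kept all 6 ranks within 20 points, against 177 constant sites with Sox3 (9.95%). Ranks all at or above 80, or all at or below 20, lie within 20 points by definition. Of the 74 sites 23 and 11 were of these kinds, and of the 177 sites 91 and 8.

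**Figure D2:**
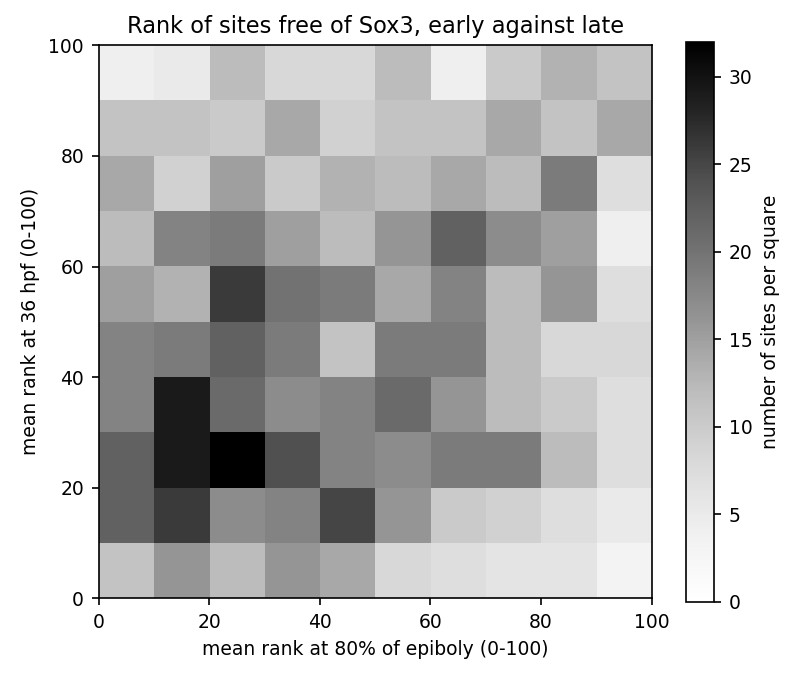
Number of sites free of Sox3 in each square of mean p63 rank at 80% of epiboly (horizontal, 0 to 100) against mean p63 rank at 36 hpf (vertical, 0 to 100), each the mean of 2 libraries. The 1415 sites spread over the whole plane with no narrow diagonal, and the fullest square holds 32 sites.

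Many sites changed places between the first and the last stage. Both 36 hpf ranks lay above both 80% of epiboly ranks at 553 sites free of Sox3 (39.1%, called late-high), where 36.5% of all constant sites did so. Both lay below at 483 sites (34.1%, called early-high), where 38.1% of all constant sites did so. These shares are close to those of all constant sites, which include the sites free of Sox3. Among constant sites with Sox3 the order was reversed, with 34.5% above and 41.3% below. The ranks are relative, so that a higher place of some requires a lower place of others. Ranks that also ordered all 3 stages without overlap went up at 116 sites (8.2%) and down at 88 (6.22%), against 7.23% and 7.55% of all constant sites. The median change from 80% of epiboly to 36 hpf was 1.6 rank points, with quartiles of −21.5 and 24.9, and −2.21 in constant sites with Sox3.

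Late-high and early-high sites had close values in position and distance, which the choice by rank did not use. At the 553 late-high sites the median fold enrichment was 7.48 and 7.1 at 80% of epiboly and 16.3 and 16.5 at 36 hpf. At the 483 early-high sites it was 11.1 and 10.4 at the first stage and 11.2 and 9.95 at the last. These medians follow from the choice by rank at the same stages and are no separate result. The medians met at 24 hpf, where late-high sites stood at 8.54 and 9.41 and early-high sites at 8.87 and 9.53. The p63 summit moved by a median of 22.5 bp between the first and the last stage at late-high sites and by 22 bp at early-high sites. This shift is not a distance between 2 single libraries, which had medians of 26 to 28 bp for these stages over all sites free of Sox3. It cannot be set against distances between replicates. The median range of the summit position over the 6 lists was 70 bp at late-high and at early-high sites. The median distance to the nearest Sox3 peak was 3208 bp at late-high and 2827 bp at early-high sites.

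The 3 sites with the largest gain of rank went from near the bottom to near the top of the constant sites. At chr19:34457311-34457732 the fold enrichment was 5.76 and 5.11 at 80% of epiboly, 8.13 and 7.68 at 24 hpf, and 22.2 and 28.3 at 36 hpf. At chr11:27220082-27220680 it was 5.63 and 5.02, then 9.47 and 9.11, then 21.7 and 23.4. At chr2:46176368-46176894 it was 5.32 and 7.0, then 9.12 and 8.78, then 20.1 and 27.8. No stage overlapped another at these sites, in fold enrichment or in rank, and the order of the stages was the same at each. That the first and the last stage did not overlap in rank was a condition of the choice. Fold enrichment follows each library's own background. Over all sites free of Sox3 its median also averaged 8.84 at 80% of epiboly and 13.2 at 36 hpf. Peak width at the second site was 105 and 241 bp at 80% of epiboly, 405 and 473 bp at 24 hpf, and 569 and 248 bp at 36 hpf.

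The 3 sites with the largest loss ran the other way. At chr14:8480299-8480717 the fold enrichment was 16.8 and 16.1 at 80% of epiboly, 10.9 and 13.0 at 24 hpf, and 7.32 and 6.74 at 36 hpf. At chr4:17494396-17495101 it was 11.4 and 10.7, then 7.35 and 7.34, then 7.01 and 7.71. At chr2:44083077-44083608 it was 17.4 and 17.7, then 10.3 and 11.7, then 10.9 and 7.46. In fold enrichment, which follows each library's own background, the first of these kept its stages apart, while at the other sites the 24 and 36 hpf values overlapped. By rank among constant sites, all 3 kept their stages apart. The chromosome 4 site ranked 44.9 and 31.9 at 24 hpf and 2.91 and 8.38 at 36 hpf. The chromosome 2 site ranked 46.5 and 46.9, then 19.0 and 7.99. All 6 sites were chosen for these changes, which therefore carry no test. None of the 6 stayed among the sites free of Sox3 with −log10 q of at least 10. With lists of equal length only chr2:44083077-44083608 did.

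**Figure D3:**
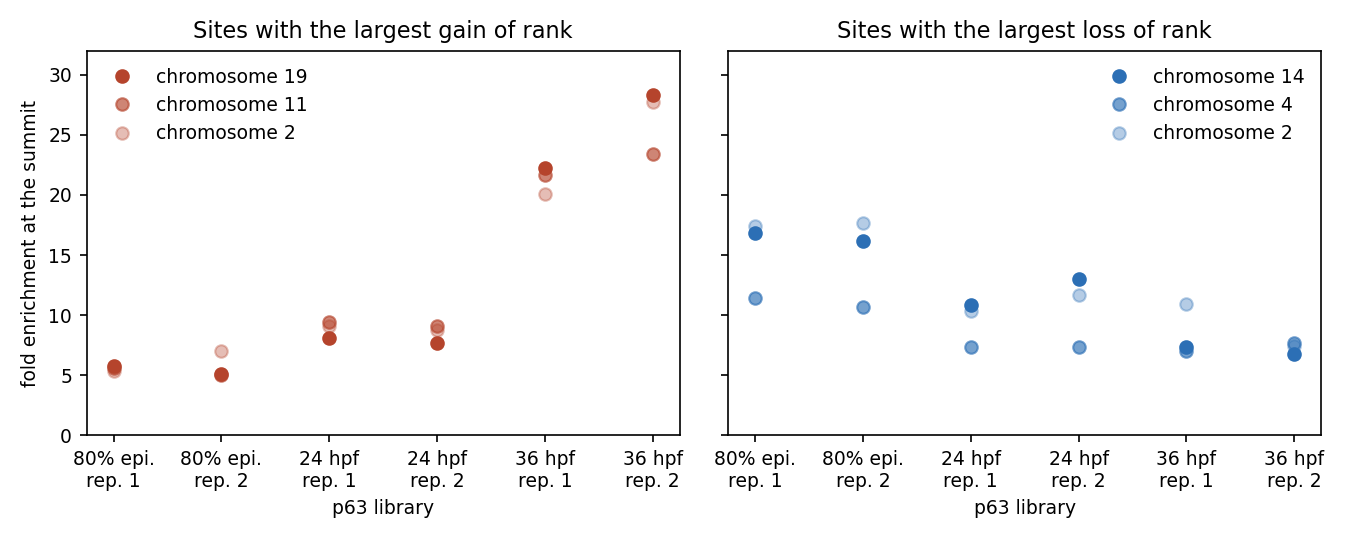
Fold enrichment at the p63 summit (vertical, ratio to local background) in each of the 6 p63 libraries for the 3 sites free of Sox3 with the largest gain (left) and the 3 with the largest loss (right) of rank from 80% of epiboly to 36 hpf, 1 point per library and site. The gaining sites stand at 5.02 to 7.0 in the 80% of epiboly libraries and at 20.1 to 28.3 in the 36 hpf libraries.

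A few sites stood near the top at every stage. The highest mean rank, 97.8, belonged to chr11:40958765-40959268, with a fold enrichment of 17.6 and 17.1 at 80% of epiboly, 17.1 and 16.3 at 24 hpf, and 23.7 and 28.3 at 36 hpf. It lay 1588 bp from the nearest Sox3 peak. The next, chr1:58826311-58826951 (mean rank 96.3), gave 13.7 and 12.6, 13.1 and 13.1, and 21.1 and 26.5, at 5523 bp from Sox3. The 4 that followed, chr20:37126319-37127013, chr17:37958926-37959503, chr11:11015155-11015659 and chr9:13112354-13112928, had mean ranks of 93.5 to 94.2 and lay 1962 to 10852 bp from Sox3. Over these 6 sites no single rank fell below 83.8, and the p63 summit stayed within 21 to 62 bp across the 6 libraries. In all, 3 sites free of Sox3 had a rank of at least 90 in every library, against 30 constant sites with Sox3.

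The p63 summit kept its position within a short stretch. Between 2 libraries of the same stage the median distance between summits at a site was 22 bp at 80% of epiboly, 26 bp at 24 hpf and 18 bp at 36 hpf. Between libraries of different stages it ran from 23 to 32 bp. The 3 pairs within a stage averaged 22 bp and the 12 pairs between stages 27.3 bp, a difference of −5.25 bp. The one-sided exact permutation test over the 15 ways of pairing the libraries gave p = 0.0667, which is the smallest it allows (adjusted over 3 stage tests p = 0.2). The most distant pairs joined 24 hpf with 36 hpf (28 to 32 bp), not the first stage with the last (26 to 28 bp). Between any 2 libraries, 70.1% to 87.8% of the sites had summits within 50 bp of each other.

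**Figure D4:**
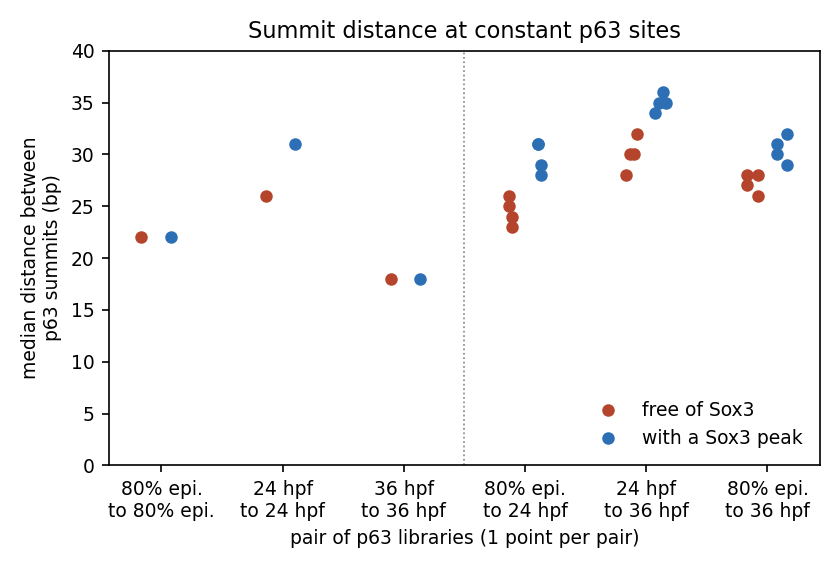
Median distance in bp between the p63 summits of 2 libraries at constant sites, 1 point for each of the 15 library pairs and class of sites; pairs of the same stage are left of the dotted line. Sites free of Sox3 stand at 18 to 26 bp within a stage and 23 to 32 bp between stages.

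Over all 6 libraries the summit of a site free of Sox3 stayed within a median of 70 bp (lower quartile 49 bp, lowest 7, highest 527), and within 100 bp at 74.7% of the sites. In constant sites with Sox3 the median range was 84 bp. The range exceeded 200 bp at 59 sites free of Sox3 (4.17%) and at 217 with Sox3 (12.2%). The median range was smaller at strong sites, at 91.5 bp in the lowest rank quintile and 50.5 bp in the highest, and in each quintile it was below that of the sites with Sox3 (134 and 61 bp in the lowest and highest). Between libraries of different stages the constant sites with Sox3 gave 28 to 36 bp. The narrower peaks of the sites free of Sox3 leave less room for a summit to move, and the part of width in this difference was not tested.

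At the steadiest sites the summit hardly moved. It stayed within 7 bp over the 6 libraries at chr8:38317594-38318264 (median summit at base 38318087, from the highest of more than 1 peak in at least 1 list). It stayed within 10 bp at chr7:52523870-52524408 and within 11 bp at chr6:56227922-56228309. At the second of these the fold enrichment was 12.5 and 10.2 at 80% of epiboly, 7.29 and 8.01 at 24 hpf, and 21.5 and 21.5 at 36 hpf, so a summit held to 10 bp went with ranks of 48.4 and 48.9 at 24 hpf and of 93.4 and 85.4 at 36 hpf.

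Sox3 peaks were seldom far away. The median number of bases from a site free of Sox3 to the nearest Sox3 peak of any library was 3139 (quartiles 1613 and 6252, range 1 to 67802). A Sox3 peak lay within 500 bp of 131 sites (9.26%), within 1 kb of 226 (16.0%), within 5 kb of 951 (67.2%) and within 10 kb of 1221 (86.3%). All but 7 sites had one within 50 kb. The 6 lists together hold 295881 Sox3 peaks, so that such distances are also met elsewhere: p63 regions free of Sox3 that were seen in 1 list had a median distance of 3183 bp and those in 5 lists 3346 bp. The share within 1 kb of Sox3 was 23.9% for regions seen in 1 list and 16.8% and 16.3% for those seen in 4 and 5 lists, the latter close to the 16.0% here.

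**Figure D5:**
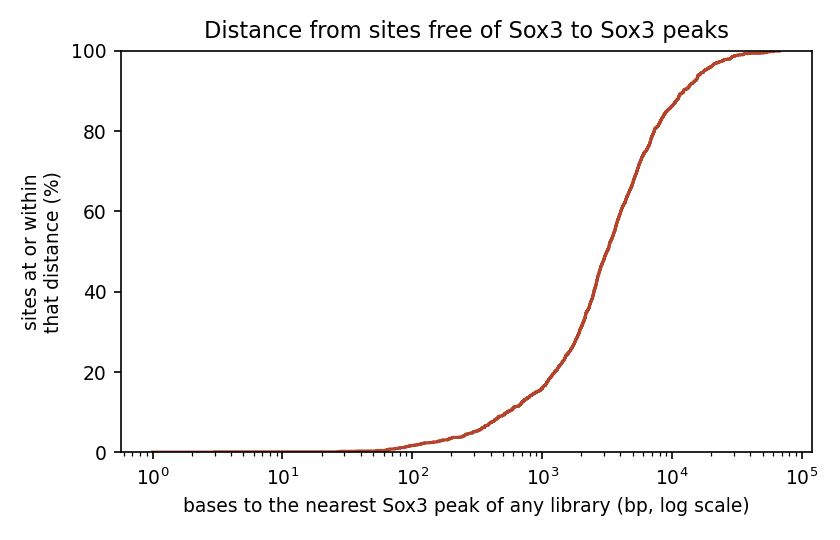
Cumulative share (vertical, %) of the 1415 sites free of Sox3 that lie at or within a given number of bases (horizontal, log scale) of the nearest Sox3 peak in any of the 6 Sox3 libraries. The curve passes 16.0% at 1 kb, 67.2% at 5 kb and 86.3% at 10 kb.

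The distance followed the length of the Sox3 list. To the nearest peak of a single list the median was 66077 bp at 80% of epiboly (6045 peaks), 13850 and 6950 bp in the wild type libraries at 36 hpf (29082 and 51504 peaks), 5998 and 4581 bp in the *tp63*-/- libraries (59786 and 81578 peaks) and 4992 bp at 24 hpf (67886 peaks). With every Sox3 list shortened to 6045 peaks and every p63 list to 9538, the constant sites free of Sox3 numbered 1681 and their median distance to Sox3 was 24522 bp. The nearest Sox3 peak came from a *tp63*-/- list at 491 and 296 sites, from the 24 hpf list at 412, and from the 80% of epiboly list at 17. These neighbouring Sox3 peaks were of middling strength, with a median percentile of 39.8 in their own list and a median fold enrichment of 6.92, and at the 226 sites within 1 kb of Sox3 the values were 41.4 and 6.63. The strongest Sox3 peak over a constant site with Sox3 had a median percentile of 66.3. That value takes the highest of several peaks at many sites, which raises it against a single nearest peak.

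Rank, width and summit range over all libraries differed little with distance to Sox3, while the rank at 80% of epiboly was lowest in the farthest sites. With the sites divided into 3 equal bins of distance, the mean of the median ranks was 46.1 in the nearest (1 to 2119 bp), 46.1 in the middle one (2128 to 4924 bp) and 44.3 in the farthest (4926 to 67802 bp). Median widths averaged 272, 277 and 269 bp, and the median summit ranges were 69, 73 and 69 bp. At 80% of epiboly alone the ranks were 47.2, 43.4 and 38.4, and at 36 hpf 47.5, 48.2 and 44.9. The 3 most remote sites were chr21:7398250-7398755 (67802 bp), chr17:40425108-40425434 (60277 bp) and chr18:33735018-33735223 (59229 bp). Their fold enrichments were moderate, at 12.4, 13.5, 8.51, 10.4, 12.4 and 7.09 in the 6 libraries of the first site, in the order of the stages. They were among neither the strongest nor the weakest constant sites, with mean ranks of 40.2, 31.9 and 39.5.

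Most of the sites had no other site free of Sox3 within 10 kb. The median gap between neighbouring sites free of Sox3 was 565388 bp, against 377786 bp between neighbouring constant sites with Sox3, of which there are more. Another site free of Sox3 lay within 10 kb of 94 sites (6.64%), and a constant site of either class within 10 kb of 157 (11.1%). Among constant sites with Sox3, 224 (12.6%) had another of their own class and 289 (16.2%) a constant site of either class within 10 kb. Any p63 region, constant or not, lay within 10 kb of 1084 sites free of Sox3 (76.6%) and of 80.4% of those with Sox3. Most sites free of Sox3 thus had p63 regions near them, but seldom constant ones, which are 4.38% of all p63 regions. Whether the sites lie closer together or farther apart than their number implies was not tested.

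On chromosomes 1 to 25, 1306 sites had no other within 10 kb, 88 formed 44 pairs and 6 formed 2 runs of 3. The tightest run of 3 spanned 15951 bp at chr16:24035913-24051863. Its first site (chr16:24035913-24036276) had a fold enrichment of 6.99 and 5.79 at 80% of epiboly and 13.3 and 7.13 at 36 hpf. The last (chr16:24051395-24051863) had 12.1 and 10.2, and 17.7 and 19.4. The mean ranks of the 3 sites were 32.6, 31.6 and 79.2, so the last stood apart from the others, and they lay 9319, 1524 and 2787 bp from Sox3. The other run, chr13:13132644-13150523, held sites of mean rank 11.0 to 38.7.

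All 25 chromosomes carried such sites, 1400 in all, and 15 more lay on 14 other sequences of the assembly. Chromosome 5 held 94, chromosome 7 held 80 and chromosome 18 held 70, while chromosome 21 held 30. Per megabase up to the last peak of any list this gave 1.37 sites on chromosome 18, 1.31 on chromosome 5, 0.654 on chromosome 21 and 0.561 on chromosome 4. Chromosome 4 was also poor in p63 regions of any kind, at 29.6 per megabase against 56.8 on chromosome 5, whereas chromosome 21 was not, at 55.0. Of the constant sites, 56.6% were free of Sox3 on chromosome 5 (95% Clopper-Pearson interval 48.7% to 64.3%) and 33.0% on chromosome 21 (23.5% to 43.6%). These chromosomes were picked as the extremes of 25, and the intervals cover counting error only.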

How the data were processed

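The 12 libraries were analysed from their deposited narrowPeak lists. Per the labels and the study's methods the authors aligned reads with Bowtie to GRCz10 (danRer10) and called peaks with MACS2 for each library alone, with a genome size of 1.5 Gb and no control library stated. Versions are not given in the sources used here. The deposited lists give position and summit in bp, a score (read only), the fold enrichment (ratio of summit pileup to local background) and its significance as −log10 p and −log10 q. The deposited values are relative to each library's own background, and the recovered tag totals differ between lists, so values were compared within a list. Summit tags and tag totals were solved from fold enrichment and −log10 p under the Poisson formula of the caller.

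In a list with several peaks at a site, the peak of highest −log10 q was used. Distances to Sox3 count the bases between region and peak. Stage tests were exact permutations over 15 groupings of the 6 p63 libraries, and class tests exact sign flips, adjusted by Benjamini-Hochberg within each kind. Named sites on chromosomes 1 to 25 were the 6 of highest mean rank, the 3 of largest gain and of largest loss with stages that do not overlap, the 3 farthest from and nearest to Sox3, the 3 of smallest summit range, the 3 constant sites sharing fewest bases with Sox3 and the run with most sites under 10 kb apart. The chromosomes and the second run were picked after their values were seen, and the sites, tests and naming rule were chosen with earlier results of these data known. Alternatives were other thresholds, overlap rules, equal lists and each library left out. Scripts were tested on simulated data (Python 3.11.15, numpy 2.4.6, pandas 2.3.3, scipy 1.17.1).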

Additional observations from a re-analysis of the deposited data

How the results depend on the processing

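The number of sites stayed within 1.5 times the reported 1415 under all alternatives run except the 50% overlap rule, which gave 2182 (1441 to 1692 without 1 p63 library, 1422 to 1853 without 1 Sox3 library). The share of constant sites free of Sox3, 44.3% in the main setting, moved more. It was 58.0% without the Sox3 list of 24 hpf, 58.7% with −log10 q of at least 10 and 68.3% under the 50% rule. With lists of equal length it was 84.0%, and with no Sox3 peak allowed within 500 bp 40.2%, the lowest. Limits of 10 on −log10 q or of 5 on fold enrichment left 767 and 1268 of the 1415 sites, and lists of equal length 810. The rank difference of −8.48 turned to 2.21 under the 50% rule and to 1.25 with lists of equal length, and was −3.06 by fold enrichment. It was −8.8 to −4.19 without 1 p63 library, where 5 libraries cannot reach an exact permutation p below 0.0625, and −9.04 to −2.82 without 1 Sox3 library. The width difference of −50.2 bp was −11.0 bp and −15.8 bp under the first pair of alternatives, −51.8 to −40.2 bp without 1 p63 library and −51.3 to −40.8 bp without 1 Sox3 library.

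The median distance to Sox3 of 3139 bp was 3386 bp with a fold enrichment of at least 5, 5450 bp with −log10 q of at least 10, 24522 bp with lists of equal length, 1461 bp under the 50% rule, 3556 bp with no Sox3 peak allowed within 500 bp, 3871 bp with wild type Sox3 lists and 2618 bp by the summit rule. It was 3089 to 3254 bp without 1 p63 library and 3162 to 3772 bp without 1 Sox3 library. The 50% and summit rules let in sites that overlap a Sox3 peak, and these were counted with no distance, which lowers the medians of both rules. The share with a neighbour within 10 kb was 5.03% with a fold enrichment of at least 5 and 8.3% under the 50% rule, and 6.36% to 7.68% and 6.49% to 7.45% without 1 p63 or Sox3 library.

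Leaving out 1 p63 library gave 10.7 to 21.5 points for the fall in percentile, 16.5 to 92.3 bp for the fall in width and −7.5 to −2.62 bp for the summit distance within against between stages. Without 1 Sox3 library these were 13.5 to 14.2 points, 47 to 56.5 bp and −5.5 to −5.0 bp. No stage result could pass a level of 0.05 in any setting, since 15 groupings allow no p below 0.0667. The summit distance reached this smallest exact permutation p in the main setting. The fall in percentile reached it with lists of equal length, where the cut and the percentile both rest on −log10 q. With a replicate block (fall in percentile 14.1, fall in width 48 bp, summit distance −5.25 bp), the exact permutation p was 0.5 for percentile, 0.833 for width and 0.167 for summit distance (the smallest of 6 arrangements). Replicate numbers do not pair the libraries, since replicate 1 lay −0.509, −4.22 and 6.86 points from its stage mean in percentile. The motif share and its window alternatives were not run. Precision is limited by 2 libraries per stage, by 1.04 M tags (megatags) in the shallowest list and by Sox3 lists with 1 library at 2 stages.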
